A study of Mus musculus with 2 samples.

Results

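Immature neutrophils of tumors were examined here as the cells that still carry RNA for Camp, Ngp and Ltf, genes of the specific granule that a neutrophil transcribes while it is being made in the bone marrow. The cells were chosen by those counts: among barcodes with 250 to 5000 detected genes, at most 27000 UMIs (unique molecular identifiers, 1 per captured RNA molecule) and at most 12.5% mitochondrial UMIs, a neutrophil had at least 5 UMIs of S100a8, S100a9, G0s2 and Csf3r together and more of them than of Apoe, C1qa, Lyz2 and Csf1r. A neutrophil with at least 5 UMIs of Camp, Ngp and Ltf together was called immature. This rule selected 60 cells of the 3220 that passed the limits and of 4390 barcodes in all: 10 in one library, labelled 4T1p, and 50 in the other, labelled 4T1m.

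Both libraries hold GR-1+ cells, taken with magnetic beads from mammary fat pad tumors of female BALB/c mice. The mice were 8 to 10 weeks old when the tumor cells were injected, and all then received anti-PD1 for 2 weeks. 4T1p is the parental 4T1 line, a triple-negative mouse breast carcinoma that resists the antibody; 4T1m is a polyclonal population made from it with the mutagen MNNG that responds. The number of mice behind each library is not given in the sources used here. The GR-1 antibody binds Ly6G and Ly6C, so the sort itself favors cells with these proteins. There was 1 library per tumor type and no untreated or IgG library, hence no replicate and no test of any difference, and all 95% intervals below (exact Poisson for counts, exact binomial for shares and ratios) cover counting error only. The library labelled 4T1p held 1641 barcodes with 9021132 UMIs and a median of 2066 UMIs, and that labelled 4T1m held 2749 barcodes with 14840190 UMIs and a median of 2763. Each library has the median UMI count that the study's text gives the other tumor, so libraries are called by their deposited labels throughout, and directions between them rest on those labels. No barcode occurred in both libraries.

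Neutrophil granules are filled in sequence as the cell matures. Azurophil granule proteins such as myeloperoxidase are made at the promyelocyte stage, specific granule proteins at the myelocyte and metamyelocyte stages, and gelatinase granule and secretory vesicle proteins in band and segmented cells. Transcription of granule genes is largely over when the cell leaves the marrow, so RNA of specific granule genes in a tissue neutrophil is a mark of youth. Division ends early in this sequence, around the time specific granule genes come on.

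Camp encodes the precursor of the antimicrobial peptide cathelicidin, Ngp a granule protein related to cathelicidins and cystatins, and Ltf lactotransferrin, which binds iron. All lie on chromosome 9 of the mouse genome (GRCm38, GENCODE vM21): Camp at chr9:109847379-109849617 on the minus strand, Ngp at chr9:110419747-110423012 and Ltf at chr9:111019271-111042767 on the plus strand, within 1195.39 kb. Since these genes were the rule, their upstream sequences are shown as the regulatory context of the selection. They are RefSeq sequence (GRCm38.p6) from 250 bases before the RefSeq start, read on the strand of the gene and ended where GENCODE starts the gene: chr9:109849618-109849706 for Camp, chr9:110419558-110419746 for Ngp and chr9:111019042-111019270 for Ltf. Capitals mark matches, on either strand, of TTNNGNAA (a loose form of the site bound by C/EBP factors) and GAGGAA (a core bound by PU.1 and other ETS factors).
Camp: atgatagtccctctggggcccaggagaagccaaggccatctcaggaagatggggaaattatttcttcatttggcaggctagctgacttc
Ngp: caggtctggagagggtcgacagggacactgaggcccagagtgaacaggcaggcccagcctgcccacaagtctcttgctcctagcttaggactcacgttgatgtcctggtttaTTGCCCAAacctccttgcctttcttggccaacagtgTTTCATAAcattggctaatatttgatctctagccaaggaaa
Ltf: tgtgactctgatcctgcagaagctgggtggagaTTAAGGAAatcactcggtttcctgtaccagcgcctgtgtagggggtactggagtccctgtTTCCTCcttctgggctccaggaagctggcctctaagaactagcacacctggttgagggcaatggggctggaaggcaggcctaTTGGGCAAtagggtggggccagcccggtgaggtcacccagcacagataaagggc
Over the 250 bases before the RefSeq start, TTNNGNAA or its reverse complement TTNCNNAA occurred in 36.8% of 32536 different promoter sequences, and GAGGAA or TTCCTC in 23.4%. Camp had neither, Ngp had 3 matches of the first motif and Ltf had 2 of the first and 1 of the second. Ngp and Ltf share the word TTGGGCAA, itself a TTNNGNAA match: it starts 75 bases before the Ltf start, and its reverse complement TTGCCCAA starts 138 bases before the Ngp start, with TTGGGCAA again at 11 bases, past the GENCODE start of Ngp. In either orientation this word occurred in 0.713% of the promoter sequences; it was picked out after the sequences had been read. These are matches of letters and not sites known to be bound. Of the other 28 protein-coding genes measured between Camp and Ltf, 3 (such as Setd2) had enough UMIs to compare, and 0 of these differed 2-fold in both libraries between immature and other neutrophils.

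Immature cells made up 10 of 249 neutrophils (4.02%, interval 1.94 to 7.26) in the 4T1p-labelled library. They made up 50 of 1025 (4.88%, interval 3.64 to 6.38) in the 4T1m-labelled library. The intervals overlap widely. Neutrophils themselves were 22.1% of the cells in the 4T1p-labelled library and 49.0% in the other, so that immature neutrophils came to 0.887% (interval 0.426 to 1.62) and 2.39% (interval 1.78 to 3.14) of all cells within the limits, intervals that do not overlap. Cell recovery, sort purity and the loss of fragile cells can set these shares, and their part was not tested.

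The rule's own counts, given as a description, spanned a wide range. Camp, Ngp and Ltf together had a median of 492.5 UMIs per immature cell (5 to 2726) in the 4T1p-labelled library and 91 (5 to 2182) in the other, which was 5.79% and 3.50% of all their UMIs. In contrast, 213 of 239 and 874 of 975 other neutrophils had none. In the 4T1m-labelled library the counts ran on across the threshold, with 7, 4 and 3 cells at 2, 3 and 4 UMIs and 9 cells at 5 to 9. Just outside the threshold were 1 cell with 3 UMIs in the 4T1p-labelled library and 3 cells with 4 UMIs in the 4T1m-labelled library, and just inside were 1 cell in each with 5. Macrophage-like cells, which had at least 5 UMIs of the Apoe set and more of it than of the S100a8 set, had at most 2 and 3 UMIs of the 3 genes per cell. The part of free RNA in cells near the threshold was not tested.

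**Figure D1:**
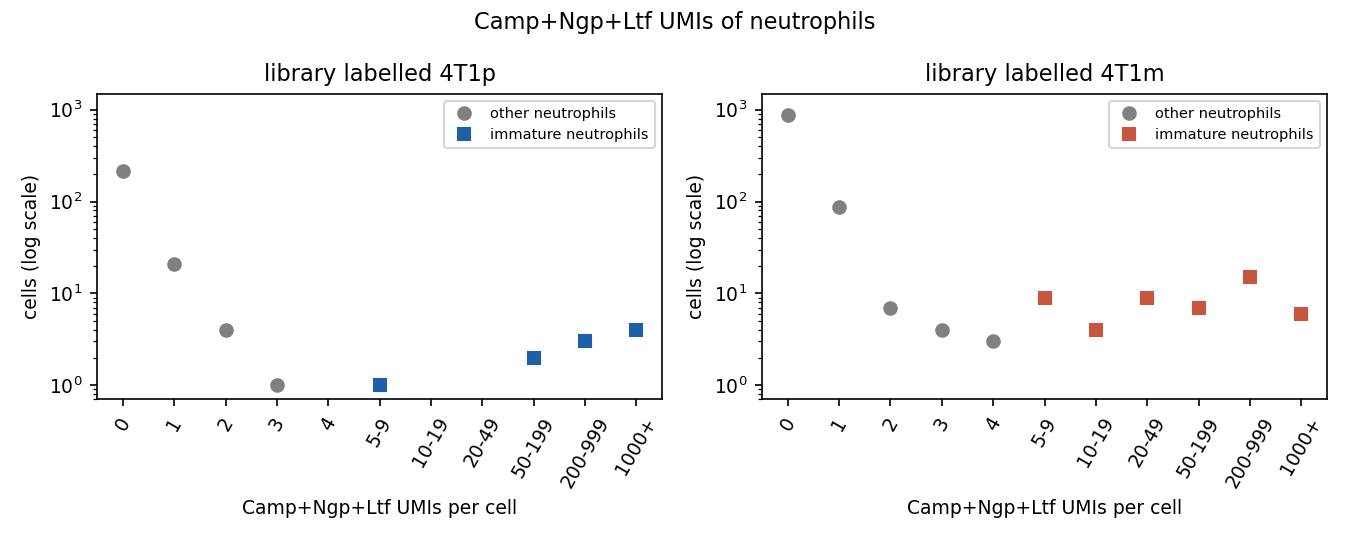
Number of neutrophils (log scale) by their Camp+Ngp+Ltf UMIs per cell, in each library; gray circles are other neutrophils and colored squares the immature ones, and bins without cells are left empty. In the 4T1p-labelled library the bins between 10 and 49 UMIs are empty, whereas in the 4T1m-labelled library cells fill every bin from 5 UMIs upward.

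The selected cells carried the surface markers of neutrophils that the rule did not use. Ly6g, the GR-1 antigen of neutrophils, was at 1425 CPM (UMIs of the gene per 1e+06 UMIs of the group) in immature and 52.4 CPM in other neutrophils of the 4T1p-labelled library, and at 1060 against 76.0 CPM in the 4T1m-labelled library. Cd177, a glycosylphosphatidylinositol-anchored protein of the specific granule and surface, was at 880 against 36.3 CPM and at 748 against 50.9 CPM. On the log2 scale, Ly6g was higher by 4.77 (interval 4.26 to 5.30) and 3.80 (3.57 to 4.04), and Cd177 by 4.60 (3.99 to 5.26) and 3.88 (3.59 to 4.17). Ly6g UMIs were found in 9 of 10 and 45 of 50 immature cells, against 7.95% and 9.44% of other neutrophils and 0.129% and 0.437% of macrophage-like cells. Depth differed between these groups: immature cells had medians of 14657.5 and 8554 UMIs, other neutrophils 2713 and 2450, and macrophage-like cells 1807.5 and 5007. After thinning each cell to 1000 UMIs, which left out 19 and 79 shallower other neutrophils, Ly6g was found in 7 of 10 and 25 of 50 immature cells and in 3.18% and 4.02% of other neutrophils. It was found in 0 of 541 and 0 of 746 macrophage-like cells, with exact upper limits of 0.680% and 0.493% for the share of cells with a UMI at this depth. Against only those other neutrophils with at least 5000 UMIs (24 and 106 cells), the log2 ratio of Ly6g was 4.04 and 2.67. Other neutrophils are a pool, of which 59 and 372 cells had at least 5 UMIs of Retnlg and Mmp8 together. Ratios against those cells alone are not reported here, so the values do not show which part of a contrast holds against them. All 60 cells had UMIs of Ptprc, the pan-leukocyte marker CD45. As groups the cells thus carried the markers of their label. Single cells lacked some of them: 1 and 5 cells had 0 Ly6g UMIs, 1 and 1 had 0 of Cd177, 1 and 12 had 0 of Camp and 0 and 15 had 0 of Ltf.

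Ratios of other genes are read against a common shift. S100a8 and S100a9, the calprotectin subunits that are part of the rule, took 39.0% and 34.7% of the UMIs of immature cells and 9.87% and 11.1% of those of other neutrophils, leaving less of the total for other genes. Of 2627 genes with at least 30 UMIs in the neutrophils of each library, the median log2 ratio of immature over other neutrophils was -0.93 in the 4T1p-labelled library and -0.72 in that labelled 4T1m. At least 2-fold higher in both libraries were 123 genes, 4.68% of those compared, and at least 2-fold lower in both were 837, or 31.9%. With mitochondrial genes and Camp, Ngp, Ltf, S100a8 and S100a9 left out of the total, the medians were -0.24 and -0.21 and the counts 258 and 401. The rule drew on this same contrast, so these counts and those below describe the cells and test nothing, and the lists were chosen with earlier results of these data known.

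Specific granule genes beyond the rule were far more abundant in immature cells: of 15 with enough UMIs (22 listed), 11 were higher in both libraries and 0 lower, with medians of 1.89 and 1.74. Among all genes compared 4.68% were higher and 31.9% lower. Lcn2, encoding the siderophore-binding lipocalin 2, was the most abundant at 13955 against 1072 CPM and 12380 against 1518 CPM (log2 ratios 3.70 and 3.03). Serpinb1a, an inhibitor of the serine proteases of neutrophils, was at 720 against 12.1 CPM and 370 against 6.72 CPM (5.90 and 5.78). Chil3, a secreted chitinase-like protein, was at 1200 CPM in immature cells of the 4T1p-labelled library against 0 UMIs in its other neutrophils. With a floor of 3 counts for that 0 it was 8.22 higher on the log2 scale (lower limit 7.90, no upper limit). In the other library Chil3 was at 192 against 3.18 CPM. Anxa1, encoding annexin A1, Pglyrp1, a peptidoglycan recognition protein, and Hp, haptoglobin, were higher too, by 4.34, 3.36 and 1.69 in the 4T1p-labelled library and by 3.31, 2.57 and 1.55 in the other. The 4 listed genes outside both calls were Cd63 and the stefin genes Stfa3, BC100530 and Stfa2l1, with log2 ratios between -3.12 and 1.74. Stefin A genes lie in a cluster of near-identical copies, so that reads may be split among them.

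The neighboring stages of the granule sequence looked different. Azurophil granule RNA was all but missing: Mpo, Elane, Ctsg and Bpi had 0 UMIs in all 60 cells, and Prtn3 (proteinase 3) had 1 and 5. Of the 9 listed genes only Ctsc, the protease that activates granule serine proteases, had enough UMIs to compare, with log2 ratios of -1.71 and -0.71. With 137517 and 468001 UMIs behind them, 0 UMIs allow up to 21.8 and 6.41 CPM by the floor of 3 counts. Gelatinase granule and secretory vesicle genes gave 1 higher and 1 lower of 11, where 4.68% of all genes compared were higher and 31.9% lower. Mmp9, gelatinase B, was the higher one, at 1033 against 278 CPM and 771 against 326 CPM. Itgam, the CD11b chain, was at 327 against 288 CPM and 470 against 356 CPM, with neither ratio past 2-fold.

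Where 4.68% of all genes compared were higher, the NADPH oxidase, which makes superoxide in the phagosome, gave 3 higher and 0 lower of 6. These were its membrane subunits Cybb (960 against 191 CPM and 1004 against 183 CPM) and Cyba, and the GTPase Rac2, with log2 ratios of 2.33, 1.55 and 1.64 in the 4T1p-labelled library and 2.46, 1.23 and 1.59 in the other. The cytosolic subunits Ncf1 and Ncf4 had log2 ratios between 0.47 and 0.67. So the membrane part and Rac2 passed 2-fold while these cytosolic subunits stayed under it.

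Lyz2, lysozyme, is commonly read as a macrophage gene, and the rule counted it on the macrophage side. It was nevertheless at 8457 against 803 CPM and at 4673 against 725 CPM. The other macrophage and monocyte markers of the list went the other way, all 10 compared being lower in both libraries (Apoe at 72.7 against 856 CPM and 100 against 482 CPM), and the rule favored this as well. Among all genes compared 31.9% were lower. Apoe, C1qa and Csf1r together had at most 7 UMIs in a cell of the 4T1p-labelled library and at most 26 in the other, with 1 cell per library at 5 or more. With Lyz2 left out of the macrophage set, the same numbers of cells, 10 and 50, were immature. Markers of dendritic cells (5 genes) and of basophils, mast cells and eosinophils (7 genes) were at 0 UMIs in the immature cells. B cell markers had 1 and 0 UMIs, listed T and NK cell markers 0 and 4 (all Nkg7), erythroid and platelet markers 6 and 7, and epithelial and stromal markers 1 and 7.

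Inflammatory genes were lower. Of 29 inflammatory genes of tumor neutrophils compared, 26 were lower in both libraries and 0 higher, with medians of -2.29 and -2.37, well under the common shift. Among all genes compared 31.9% were lower. Il1b, the cytokine interleukin 1 beta, was at 1622 against 10540 CPM and 2325 against 10216 CPM (log2 ratios -2.70 and -2.14). Cd274, encoding PD-L1, the ligand of the receptor that anti-PD1 blocks, was at 72.7 against 936 CPM and 107 against 634 CPM (-3.69 and -2.57). Nlrp3, the inflammasome sensor, Ptgs2, which makes prostaglandins, and the chemokine gene Cxcl1 had ratios of -3.42, -2.95 and -4.75 in the 4T1p-labelled library and -3.18, -3.24 and -3.77 in the other. Cxcl2, the most abundant chemokine, remained at 12740 and 19096 CPM, against 44226 and 45995 CPM in other neutrophils. Tnf, Hdc and Il1f9 had ratios between -1.10 and 0.27 and were outside both calls.

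Of 22 genes of mature neutrophils, 8 were lower and 3 higher, the latter being Ifitm6, Retnlg and Mmp8. The share that was lower is close to the 31.9% of all genes compared, as is that of the surface molecules given below. Among all genes 4.68% were higher. Csf3r, the receptor of G-CSF, was at 247 against 936 CPM and 419 against 934 CPM, though it counts toward the rule. Fth1, ferritin heavy chain, was at 14304 against 53027 CPM and 21981 against 48208 CPM. Cxcr2, the receptor that draws neutrophils out of the marrow, was at 145 against 380 CPM and 325 against 367 CPM (log2 ratios -1.39 and -0.18), so it was past 2-fold in 1 library and not in the other. Retnlg, a resistin-like protein typical of marrow and blood neutrophils, was at 10050 against 2246 CPM and 15731 against 5373 CPM. Ifitm6, an interferon-induced transmembrane family member, was at 4341 against 164 CPM and 5233 against 311 CPM. Interferon-stimulated genes gave 16 lower and 0 higher of 23, where 31.9% of all genes compared were lower. Isg15 was at 327 against 2856 CPM and 126 against 772 CPM. In the 4T1p-labelled library 80% of the Isg15 UMIs of immature cells were in 1 cell, described below, that met the rule through Ltf alone. The value of 327 CPM therefore rests largely on that cell.

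**Figure D2:**
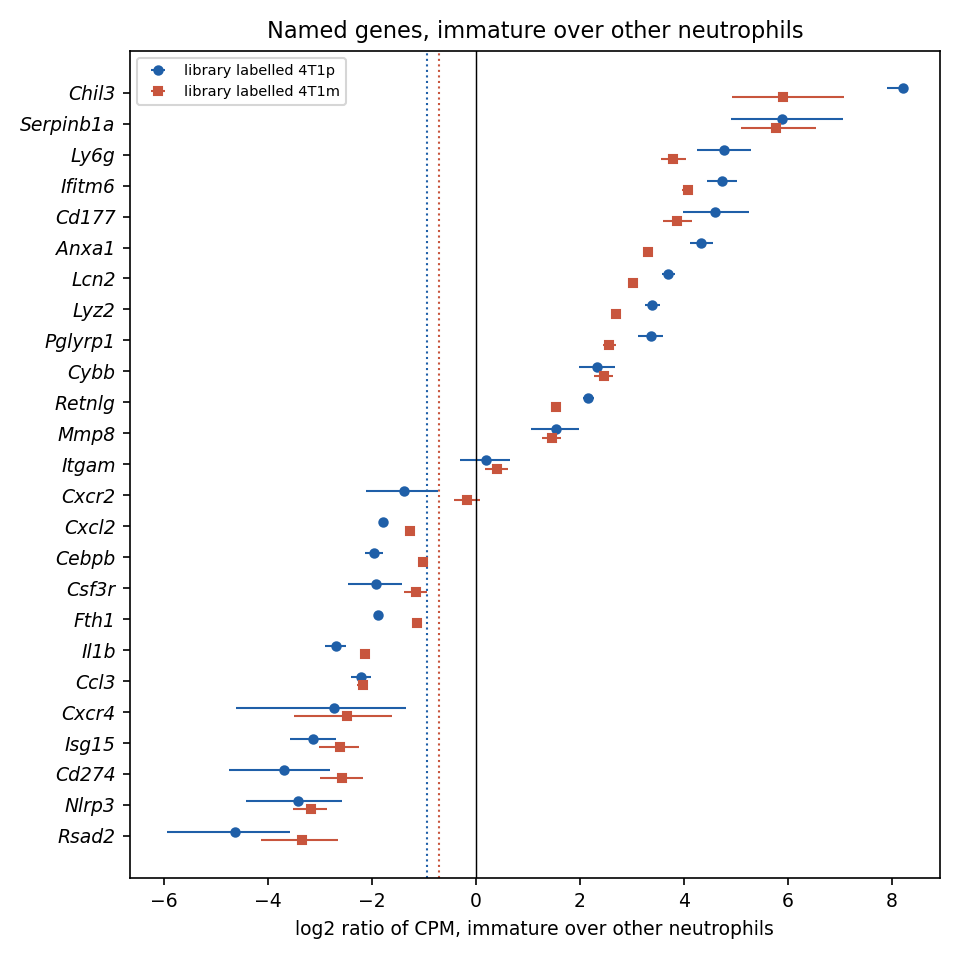
Log2 ratio of CPM, immature over other neutrophils, for 25 genes in each library (blue circles 4T1p, red squares 4T1m); bars are 95% counting intervals, dotted lines the median of 2627 genes in each library and the solid line no difference. Granule genes and Ly6g lie at the top right in both libraries and inflammatory and interferon genes at the lower left. Chil3 in the 4T1p-labelled library takes a floor of 3 counts for 0 and has no upper limit.

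Where 4.68% of all genes compared were higher and 31.9% lower, 4 of 20 from the list of surface molecules were higher and 7 lower. The higher ones were Ly6g, Cd177, the myeloid receptor Trem3 and Mgst1, a microsomal transferase that the list holds although it is not a surface molecule. The lower ones included Cxcr4, the receptor that holds neutrophils in the marrow, at 29.1 against 192 CPM and 23.5 against 131 CPM.

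In a list of regulators of granulopoiesis, 7 of 10 genes compared were lower and 0 higher, where 31.9% of all genes compared were lower. The medians of the list were -1.83 and -1.32, against the common shift of -0.93 and -0.72. The lower ones were Cebpb, Runx1, Klf2, Klf4, the immediate-early genes Fos and Junb, and Nfkbia, an inhibitor of NF-kappaB that is not itself a transcription factor, whereas Cebpa, Gfi1, Klf5 and Myb had too few UMIs to compare. Cebpb, used in emergency granulopoiesis, was at 2160 against 8392 CPM and 3645 against 7412 CPM. Spi1, encoding PU.1, was at 393 against 402 CPM and 333 against 354 CPM. Cebpe, the factor required for specific granules, had only 5 and 34 UMIs in immature cells, or 36.4 against 6.72 CPM and 72.7 against 3.89 CPM, with log2 ratios of 2.44 (interval 0.32 to 4.56) and 4.22 (3.21 to 5.35). Ribosomal protein genes lay above the common shift, with medians of -0.55 and -0.56 against -0.93 and -0.72 of all genes compared. They gave 0 higher and 7 lower of 71, where 31.9% of all genes compared were lower. Mitochondrially encoded genes gave 6 lower and 0 higher of 11, where 31.9% of all genes compared were lower, with medians of -1.45 and -1.15.

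By rank in the library with more immature cells, the 25 highest ratios began with Camp, Ngp, Ltf, Chil3 and Serpinb1a. Beside genes given above they held Orm1 and Lbp, acute-phase proteins better known from liver, Aldh2, Golim4, Mgst2, Rab3d, Adpgk, Cep19, Ceacam10, Lrmp, Ckap4, Olfml2b, Gpr27 and Padi4, the enzyme that citrullinates histones. Aldh2, mitochondrial aldehyde dehydrogenase, was at 771 against 26.9 CPM and 545 against 36.1 CPM, found in 9 of 10 and 40 of 50 cells. Cd3d, a T cell receptor chain, also ranked here, with 14 UMIs in 7 cells and 61 UMIs in 24 cells (102 against 14.8 CPM and 130 against 10.6 CPM), while Cd3e had 0 UMIs in the same cells. The 15 lowest ratios (among them Sparc, Sdc4, Ifih1, Ggct, Gm17056, H2-Q6, Gm12840, Ciart, Srxn1, Sdhaf1, Mmp12, Zfp326 and Mthfsl) each rested on 1 or 2 UMIs in the 50 immature cells of the 4T1m-labelled library, so their order is within counting error. A count of 0 took the floor of 3 counts and so ranked above a count of 1. In that library Gbp5 had 0 against 152 UMIs and a ratio of -3.07, whereas Zfp326 had 1 against 107 and -4.15. The 15 are therefore not necessarily the most depleted genes.

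The 60 cells were far from uniform, also in the share of Camp, Ngp and Ltf in a cell's UMIs. That share had a median of 4.84% (0.150 to 10.5) in the 4T1p-labelled library and 1.24% (0.0496 to 9.45) in the other. Each library was split by it into cells with a higher and a lower share, 5 and 5 cells (from 6.42% and up to 3.25%) and 25 and 25 cells (from 1.37% and up to 1.10%). The split was made after the values had been seen and serves as a description.

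The balance among the 3 genes is given as a description, since the same counts chose and ordered the cells. For 100 Ngp UMIs there were 76.0 Camp UMIs in cells with the higher share and 37.4 in those with the lower share in the 4T1p-labelled library, and 67.0 and 7.13 in the 4T1m-labelled library. In the 13 cells of that library with fewer than 20 UMIs of the 3 genes, 109 were of Ngp, 5 of Camp and 3 of Ltf. Every one of the 50 cells had Ngp UMIs, whereas 38 had Camp and 35 had Ltf. Leaving Ngp out of the rule would keep 32 of these 50 cells, and leaving out Camp or Ltf 50 or 49.

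Retnlg ran against the 3 genes. It was at 434 CPM (interval 308 to 593) in the cells with the higher share and 28226 CPM (26737 to 29777) in those with the lower share of the 4T1p-labelled library, and at 8336 CPM (8008 to 8673) and 28053 CPM (27274 to 28847) in the 4T1m-labelled library. In the 4T1p-labelled library the 5 cells with the highest share had 2, 8, 28, 0 and 1 Retnlg UMIs, and the next 4 by their UMIs of the 3 genes had 478, 338, 335 and 192. The tenth cell, with the lowest share of all, went against this with 0. Mmp8, neutrophil collagenase, also stood higher in the cells with the lower share, at 256 and 820 CPM and at 547 and 1139 CPM, as did Prok2, the chemokine-like prokineticin 2, at 89.0 and 967 CPM and at 243 and 1475 CPM. Il1b was at 1234 and 2354 CPM and at 1002 and 4529 CPM, and Cd274 had 0 and 10 UMIs and 13 and 37 UMIs. In the 4T1p-labelled library 1 cell held 102 of the 112 Il1b UMIs of the cells with the lower share. The other 4 of these cells had 0, 8, 0 and 2, so the Il1b direction in that library rests on 1 cell. Cxcl2 did not share one direction, at 11186 and 15679 CPM in the 4T1p-labelled and 19667 and 18145 CPM in the 4T1m-labelled library.

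Other genes went with the 3. Lyz2 was at 11252 and 3174 CPM and at 6120 and 2262 CPM, Cybb at 1145 and 610 CPM and at 1467 and 234 CPM, and Serpinb1a at 890 and 399 CPM and at 503 and 148 CPM. Ly6g was close in both parts of this split, at 1423 and 1429 CPM and at 1053 and 1071 CPM, with overlapping intervals in each library, though by count rather than share the 13 cells of the 4T1m-labelled library with fewer than 20 UMIs of the 3 genes had 658 CPM against 1141 CPM in the other 37. Across cells, Spearman's rho of the share with Retnlg (as a fraction of the remaining UMIs) was -0.63 over 50 cells and -0.47 over 10, that with Lyz2 was 0.70 in both libraries, that with Cybb was 0.78 and 0.76, and that with Ly6g 0.22 and 0.20. With total UMIs it was 0.45 and 0.73. Cells of 1 library share their preparation, and depth moved with the share: cells with the higher and the lower share had median UMIs of 19266 and 9686 in the 4T1p-labelled library and of 12875 and 6685 in the other. The part of depth in these relations was not tested.

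**Figure D3:**
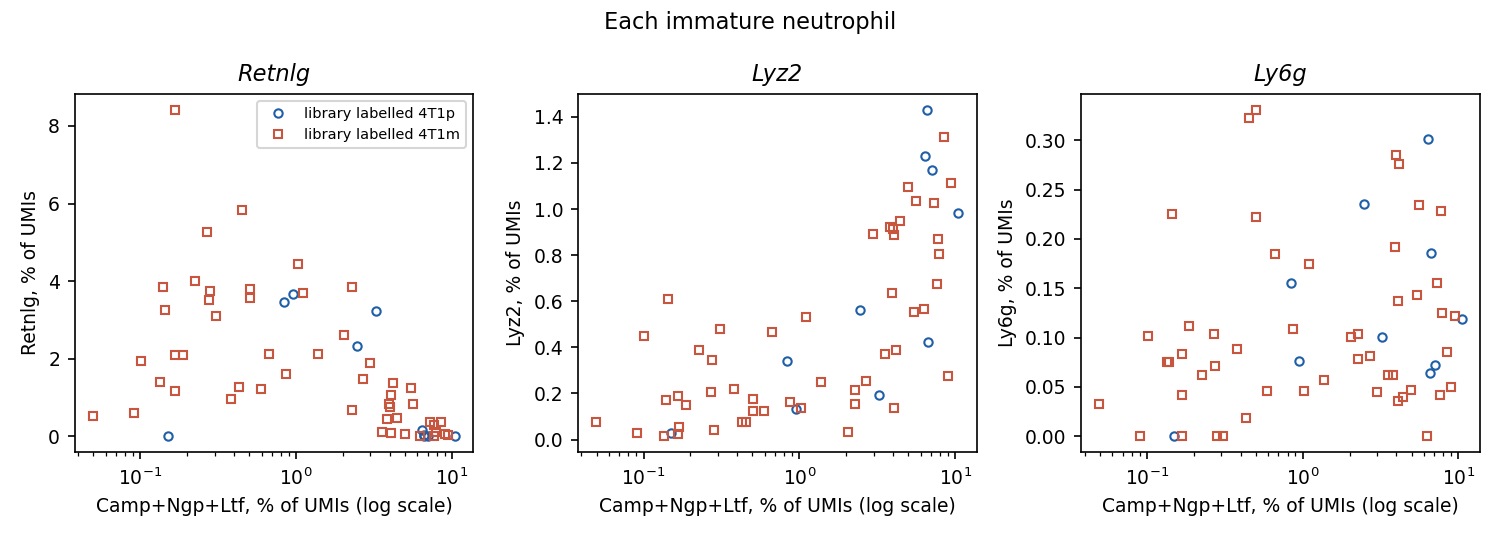
Each immature neutrophil (blue circles 4T1p-labelled library, n = 10; red squares 4T1m-labelled, n = 50) by the percent of its UMIs from Camp, Ngp and Ltf (x, log scale) and from Retnlg, Lyz2 or Ly6g (y). Retnlg is near 0 in the cells above 6% on the x axis and spreads up to 8.42% below it, Lyz2 climbs to the right, and Ly6g shows little slope.

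RNA of cell cycle genes was concentrated in few cells, 1 cell holding 91.8% of it in the 4T1p-labelled library and 66.2% in the other. Over 33 cell cycle genes (the 40 listed less those that resting cells also express, such as Hmgb2 and H2afz), the immature cells of the 4T1p-labelled library had 159 UMIs, of which 146 were in a single cell, and those of the 4T1m-labelled library had 151, of which 100 were in a single cell. Each of these was the cell with the most UMIs (26010 and 24299) and the most Camp+Ngp+Ltf UMIs of its library. The first held 38 of 39 Ube2c UMIs (a ubiquitin-conjugating enzyme of mitotic exit), all 16 of Top2a (topoisomerase II alpha) and all 16 of Rrm2 (a subunit of ribonucleotide reductase). The second held 20 of 21 Top2a UMIs and 21 of 25 of Mki67, the proliferation marker Ki-67. Apart from these, 1 cell with 19 UMIs and 1 with 9 stood out in the 4T1m-labelled library, and 48 of 60 cells had 0 or 1. Of the 40 genes, 6 had enough UMIs to compare with other neutrophils, of which the histone gene H2afz and the nucleosome-binding Hmgn2 were higher in both libraries and 0 lower. Among all genes compared 4.68% were higher. The deepest cell held 103 of 153 H2afz and 27 of 48 Hmgn2 UMIs of the 4T1p-labelled library, and without it their log2 ratios there were 1.01 (0.52 to 1.47) in place of 2.32 and 1.52 (0.70 to 2.28) in place of 2.41. The same first cell held 133 of 165 Chil3 UMIs of the 4T1p-labelled library, and without it the log2 ratio of Chil3 over other neutrophils was at least 6.15. These cells were not among those with the highest doublet scores, and had 0 and 2 UMIs of Apoe, C1qa and Csf1r.

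**Figure D4:**
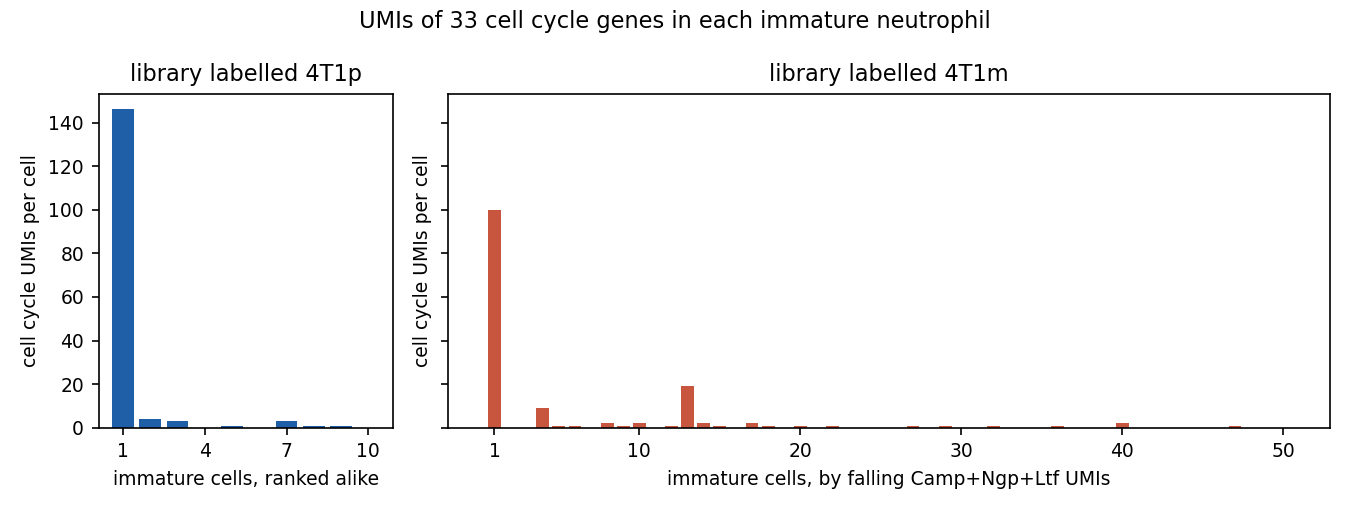
UMIs of 33 cell cycle genes in each immature neutrophil, ordered by falling Camp+Ngp+Ltf UMIs, for the 4T1p-labelled (10 cells) and 4T1m-labelled (50 cells) libraries. The first cell of each library has 146 and 100 UMIs, and all others have 19 or fewer.

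At the other end, the last cell of the 4T1p-labelled library met the rule through 5 Ltf UMIs alone. It had 0 UMIs of Camp, Ngp, Ly6g, Cd177, Ifitm6 and Serpinb1a and 1 of Lcn2, and the inflammatory list took 14.5% of its UMIs, against 0.242 to 4.13% in the other 9 cells. Its profile went against the label. Without it, as with a minimum of 20 UMIs, 9 cells or 3.61% of neutrophils were immature in that library. The 13 cells with fewer than 20 UMIs in the 4T1m-labelled library differed from it: they had Lcn2 at 5483 CPM, Ly6g at 658 CPM, Cd177 at 380 CPM and Retnlg, listed with the mature neutrophil genes, at 25590 CPM, all above the other neutrophils of that library, with Chil3 at 0 UMIs. Cybb, at 165 CPM, was below the 183 CPM of other neutrophils. The inflammatory list summed to 39924 CPM, against 26867 in the 37 cells with more UMIs and 86153 in other neutrophils. For the interferon list the sums were 2165, 1031 and 3011 CPM. These cells thus differed from the other immature cells in several respects.

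Between the tumors, the immature cells were compared with the other neutrophils set beside them. Since the labels are in doubt, each sign below would turn if they were exchanged, and no expression value was used to decide between the labels. Of 1623 genes with at least 30 UMIs in the immature cells of both libraries together, 289 (17.8%) were at least 2-fold higher and 58 (3.57%) at least 2-fold lower in the 4T1m-labelled library, with a median log2 ratio of 0.23, against 0.04 for the same genes in other neutrophils. By the mean over cells of the CPM of each cell, 314 were higher and 111 lower. The 10 cells of the 4T1p-labelled library limit this comparison, as single cells set several of its values. Camp, Ngp and Ltf, the genes of the rule, had log2 ratios of -0.86, -0.70 and -0.52. Lcn2 and Anxa1 differed by -0.17 and -0.01, and Retnlg was higher by 0.65 (and by 1.26 in other neutrophils).

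Interferon-stimulated genes differed between the libraries in other neutrophils more than in immature ones. Summed over 24 genes, they stood at 1185 CPM (interval 1010 to 1382) in the immature cells of the 4T1p-labelled library and at 1222 CPM (1124 to 1327) in those of the 4T1m-labelled library, a log2 ratio of 0.04 (interval -0.21 to 0.30). In other neutrophils they stood at 8408 and 3011 CPM, a log2 ratio of -1.48 (-1.53 to -1.43). Slfn4 made up 54 of 163 and 344 of 572 of the UMIs in immature cells. Without this gene the immature cells had 793 and 487 CPM and the direction turned, to a log2 ratio of -0.70 (-1.04 to -0.36), with -1.67 (-1.72 to -1.61) in other neutrophils. The last cell of the 4T1p-labelled library, the one with Ltf alone, held 56 of the 163. Without it the sum was 797 CPM and the log2 ratio 0.62 (0.32 to 0.93), and without both this cell and Slfn4 the ratio was 0.25 (-0.18 to 0.70). The direction in immature cells therefore depends on 1 gene and 1 cell, while the intervals of immature and other neutrophils did not overlap in any of these 4 versions.

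Inflammatory genes of tumor neutrophils had a log2 ratio of 0.38 (0.33 to 0.44) in immature cells and -0.01 (-0.03 to -0.00) in other neutrophils. Without the 4T1p-labelled cell with Ltf alone, the ratio in immature cells was 0.60 (0.54 to 0.66). Mature neutrophil genes had 0.56 (0.52 to 0.60) and -0.05 (-0.06 to -0.03). Specific granule genes beyond the rule had -0.06 (-0.10 to -0.02) and 0.21 (0.17 to 0.25). The mix of cells with a high and a low Camp, Ngp and Ltf share differed between the libraries, as their medians show, and its part in these values was not tested.

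**Figure D5:**
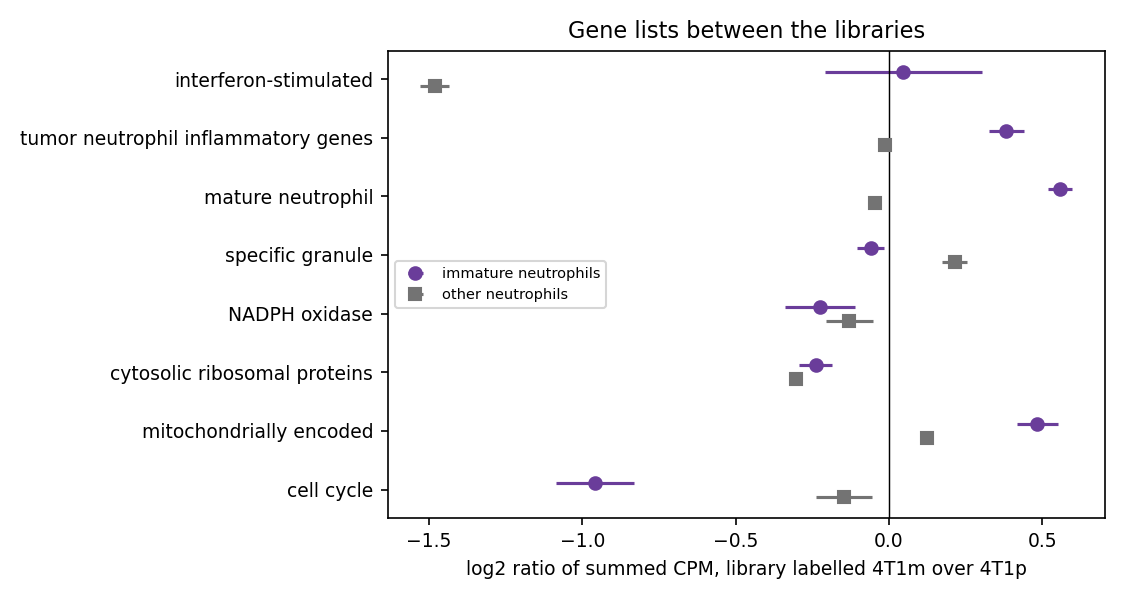
Log2 ratio of summed CPM of gene lists, 4T1m-labelled over 4T1p-labelled library, in immature (purple circles) and other neutrophils (gray squares), with 95% counting intervals. Interferon-stimulated genes lie at -1.48 in other and 0.04 in immature neutrophils, and the cell cycle list of immature cells rests largely on 1 cell.

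The genes with the highest ratios in the 4T1m-labelled library were Stfa3, Stfa2, Chd1, Hspa1a, Dmxl2, Dhrs9, Spp1, Ifngr2, Rnf19a and Rnf19b. Except for Stfa2 (11 UMIs), each had 1 or 2 UMIs in the 10 cells of the 4T1p-labelled library, so the intervals are wide: for the chromatin remodeler gene Chd1, 1 and 73 UMIs gave 4.42 (1.90 to 9.75). Genes with 0 UMIs in a library took the floor of 3 counts there, which moved them toward the middle of this ranking. Of 59 Hspa1a UMIs (a heat shock protein) in the 4T1m-labelled library, 94.9% were in 1 cell. The lowest ratios were those of Ube2c, Chil3, Tuba1b, H2-Q7, Irf1, Sumo2, Srsf3, Gapdh, Cycs and Tubb4b. Without the deepest immature cell of each library, Ube2c was left with 1 UMI and 0 UMIs, too few for a ratio, and Chil3 moved from -2.64 to -0.50. Gapdh, a glycolytic enzyme, was at 1571 and 551 CPM, a log2 ratio of -1.51 (-1.78 to -1.24), with 20.8% of its UMIs in the cell with the most, and at -1.42 in other neutrophils, so the values were close in both.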

How the data were processed

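The authors isolated GR-1+ cells, made 10x Genomics 3′ v3 libraries, aligned reads with Cell Ranger to mm10 (GRCm38) and deposited matrices of raw UMI counts, filtered to cell-containing barcodes. The matrix header names software version 3.1.0. These counts were used as deposited. No cell annotation was used. Cells were taken by the rule given at the start of the report, with no doublet or Ptprc filter (Scrublet scores served as an alternative only). Counts of a gene were summed over the cells of a group and divided by the group's total (CPM, per 1e+06). Ratios are log2 ratios of CPM with exact binomial intervals, with a floor of 3 counts for 0, for genes reaching 30 UMIs over the compared groups, and 2-fold was the threshold. With 1 library per condition no model was fitted and no p-value computed. Cells were thinned to 1000 UMIs for shares of cells with a UMI. Genes go by symbol; among 28692 listed genes, 67 rows repeat a symbol.

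The members, gene lists and comparisons were chosen with earlier results of these data known. Genes named are those of the lists, the 25 highest and 15 lowest ratios in the 4T1m-labelled library with the same sign in the other, and the 10 highest and 10 lowest between libraries; Cebpd was not analysed here, and some genes that the rule names are not reported here. The study's methods name a later Cell Ranger version than the matrix header.

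On counts simulated at these depths with 200 changed genes, the sign was right for 100% of changed genes in the 4T1p-labelled library (2635 genes) and 99.5% in the other (5296 genes), and intervals covered 96.9% and 96.4% of true ratios. The simulated counts were Poisson draws of group totals, without differences between cells. This coverage therefore holds for counting error only and says nothing of genes whose UMIs lie mostly in 1 cell. Tools were Python 3.11.15, scanpy 1.11.5, matplotlib 3.10.9, scipy 1.17.1, numpy 2.4.6 and pandas 2.3.3.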

Additional observations from a re-analysis of the deposited data

Results flagged for a closer look

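Stfa3, a stefin A cysteine protease inhibitor of the specific granule list, went opposite ways in the libraries. Its log2 ratio of immature over other neutrophils was -3.118 in the 4T1p-labelled library (1 UMI in 10 immature cells) and 1.739 in the 4T1m-labelled library (401 UMIs, in 11 of 50 cells, 7 of them with 10 or more and the highest with 109). With 1 library per tumor the difference was not tested, and copies of this gene family can share reads.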

How the results depend on the processing

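The share of immature cells among neutrophils stayed within its interval in the 4T1p-labelled library under all 12 alternatives. In the 4T1m-labelled library, 4.88% became 3.61% with a minimum of 20 UMIs, 3.12% without Ngp in the sum and 6.65% with at most 5% mitochondrial UMIs. Genes at least 2-fold higher and lower in both libraries numbered 123 and 837. They numbered 258 and 401 with the mitochondrial and most abundant genes left out of the total, and 51 and 385 with at least 100 UMIs per gene. With at least 10 UMIs per gene 241 were higher and 1092 lower of 5074 compared, in place of 2627. Against other neutrophils with at least 5000 UMIs, chosen after seeing the data, 65 were higher and 360 lower, of 1198 genes compared; all 65 were among the 123. Between libraries, 58 genes were lower in the 4T1m-labelled library by sums and 111 by the mean over cells. Of 600 alternative values of named genes over other neutrophils 597 kept their direction and 202 moved outside the interval of the reported value. The exceptions were Mki67 in the 4T1p-labelled library (-0.0718 against deep other neutrophils, -0.962 without the deepest immature cell) and Top2a in the 4T1m-labelled library (-1.33 without that cell), each then resting on few UMIs. Between libraries 119 of 120 kept it and 32 moved outside the interval; Hspa1a gave -0.0748 among immature cells with at least 5000 UMIs. Leaving out the 4T1p cell with Ltf alone, also chosen after seeing the data, moved the interferon ratio between libraries from 0.04 to 0.62, and that of the inflammatory list from 0.38 to 0.60, and leaving out Slfn4 turned the former to -0.70. No paired analysis was possible because each group has 1 library. Depth limits genes under about 30 UMIs, chiefly in the 10 cells of the 4T1p-labelled library.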

Other observations

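Barcodes outside the limits on cells also met the rest of the rule: 1 in the 4T1p-labelled library, with 954 Camp+Ngp+Ltf UMIs and a mitochondrial share over the limit, and 3 in the 4T1m-labelled library (2 over the mitochondrial and 1 over the UMI limit), with up to 2606.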
